A study of Mus musculus with 2 samples.

Results

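The cells described here are retinal microglia that carry Apoe transcripts without the Spp1 program, a set of genes including Spp1, Gpnmb, Fabp5 and Lgals3 that marks activated microglia. They were chosen by counts of unique molecular identifiers (UMIs, 1 per captured transcript). Each had a minimum of 500 UMIs and 250 detected genes, with mitochondrial counts of no more than 15%. Each had at least 3 counts of P2ry12, a purinergic receptor of resting microglia, and at least 3 of Apoe. Each had at most 1 count of the 4 program genes together, and none of Ms4a7, Mrc1, Pf4, H2-Aa or Rlbp1, which mark border macrophages, antigen-presenting cells and Müller glia. The rule found 155 of 4520 barcodes, 78 of 2735 in the library labelled wildtype and 77 of 1785 in the library labelled knockout. The cells they are set against met the same limits with an Apoe count of 0, and numbered 1384 and 612. Because Apoe, P2ry12 and the 9 genes limited by the rule chose the cells, their values are given as description only.

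The study used the 10x 3′ chemistry on cells that were sorted from mouse retinas for CD45, a surface protein of leukocytes, to compare retinal immune cells with and without Igfbpl1, a gene related to the insulin-like growth factor binding proteins. Both groups were adult C57BL/6 mice, 1 library labelled wildtype and 1 labelled Igfbpl1-/-, and the design text gives 10 sex-matched animals per genotype at 8 to 10 months of age. Animals were perfused, and retinas were dissociated with collagenase/dispase, papain and DNase before the sort. The labels give neither the altered allele nor the number of mice behind each library, and no table ties a cell to a mouse. Igfbpl1 itself went against the labels, with 2 counts in 2 barcodes of the library labelled wildtype and 29 counts in 27 barcodes of the library labelled knockout. Among the Apoe-expressing cells it had 0 and 2 counts. A 3′ tag can lie outside a deleted part, so these counts do not check the allele. Whether the labels were exchanged was not tested. An exchange would turn every direction between libraries given below, each of which is a direction between labels.

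With 1 library per label there is no replicate, so no test was possible and no p-value is given. Cells of 1 library are not replicates, and genotype, animals and library preparation cannot be told apart. All intervals are 95% intervals for counting error only. They are exact (Clopper-Pearson) for shares, from the exact split of counts for ratios, and approximate on the log scale for a ratio of ratios. Values are given for the library labelled wildtype first and the library labelled knockout second. CPM is the counts of a gene per 1000000 counts summed over a group of cells.

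Apolipoprotein E is a lipid carrier that cells secrete to take up and hand on cholesterol and phospholipids. In the retina, Müller glia are a main source of it, and macrophages at the tissue borders make much of it too. Resting microglia make little, and Apoe is among the genes that rise when microglia meet damage, plaques or myelin debris, where it is usually described together with Trem2, Lpl, Cst7, Axl and, later, Spp1 and Gpnmb. Cells with Apoe but without the Spp1 group, and with P2ry12 still present, therefore hold 1 part of that gene set apart from another.

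The cells carried the identity genes of microglia. P2ry12, which the rule used, stood at 1458 and 1584 CPM against 1972 and 1944 CPM in the Apoe-0 cells. Among genes the rule did not use, Cx3cr1, the fractalkine receptor, had ratios of 1.02 and 0.969 to the Apoe-0 cells. Csf1r, the receptor microglia need to survive, had 0.954 and 1.03, and Sall1, a transcription factor of microglial identity, 0.938 and 1.02. Tmem119, a microglial membrane protein, was slightly lower, at 0.905 and 0.836 of the Apoe-0 level. The name microglia was not contradicted by these markers. Pericyte and retinal pigment epithelium markers were at 0 in both libraries, the latter also in the Apoe-0 cells. Neutrophil markers summed to 158.8 and 181.4 CPM against 197 and 180.8 CPM in the Apoe-0 cells. B cell markers summed to 26.5 and 27.4 CPM against 37.7 and 43.1 CPM. T and NK cell markers summed to 43.3 and 4.22 CPM against 1.14 and 1.72 CPM. All 18 of those counts under the wildtype label were in 1 cell. Monocyte, rod, bipolar, endothelial and red cell markers were not at 0 either.

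The Apoe gene lies on chr7:19696109-19699188 of GRCm38, minus strand, with Apoc1 at chr7:19689481-19692660 on the same strand, 3448 bases away. Promoter windows of 300 bases (250 before to 50 after a RefSeq start, GRCm38.p6) are printed for Apoe and for 3 of the genes that stood higher beside it in both libraries, Tmem176a, Cp and Cybb. They are shown 5′ to 3′ on the gene's strand because these genes had higher counts in the same cells, and capitals mark an AP-1 motif where there is one. The windows are chr7:19699139-19699438 (minus), chr6:48841233-48841532 (plus), chr3:19956804-19957103 (plus) and chrX:9469275-9469574 (minus).
Apoe: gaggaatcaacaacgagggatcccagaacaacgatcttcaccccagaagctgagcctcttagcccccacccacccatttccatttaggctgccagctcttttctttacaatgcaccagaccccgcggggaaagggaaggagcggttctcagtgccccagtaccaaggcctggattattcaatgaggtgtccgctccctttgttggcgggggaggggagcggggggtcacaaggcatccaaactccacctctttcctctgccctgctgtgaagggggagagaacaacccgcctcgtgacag
Tmem176a: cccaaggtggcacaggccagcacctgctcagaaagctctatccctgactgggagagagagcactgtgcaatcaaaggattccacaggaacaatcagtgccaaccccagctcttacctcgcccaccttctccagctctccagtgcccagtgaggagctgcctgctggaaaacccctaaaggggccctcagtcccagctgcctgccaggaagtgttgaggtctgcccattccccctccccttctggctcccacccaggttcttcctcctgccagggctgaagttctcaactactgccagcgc
Cp: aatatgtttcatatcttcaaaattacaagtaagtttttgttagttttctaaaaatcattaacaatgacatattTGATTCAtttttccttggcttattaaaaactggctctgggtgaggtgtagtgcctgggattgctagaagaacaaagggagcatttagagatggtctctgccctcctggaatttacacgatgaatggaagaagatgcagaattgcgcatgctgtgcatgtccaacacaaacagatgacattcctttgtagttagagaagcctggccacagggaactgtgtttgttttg
Cybb: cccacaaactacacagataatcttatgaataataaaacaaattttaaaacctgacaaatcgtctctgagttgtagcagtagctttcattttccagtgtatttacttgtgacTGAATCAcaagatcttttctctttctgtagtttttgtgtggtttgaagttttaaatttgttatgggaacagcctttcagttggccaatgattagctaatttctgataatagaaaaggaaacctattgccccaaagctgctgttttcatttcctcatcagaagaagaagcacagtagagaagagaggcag
The AP-1 motif searched was TGANTCA, found on either strand in 7.81% of 32817 RefSeq windows of this length. It began 177 bases before the start of Cp and 139 bases before that of Cybb, and was not in the windows printed for Apoe and Tmem176a. The other motifs searched on both strands were the PU.1 motif GAGGAAGT (3.2% of windows), the LXR repeat, AGGTCA followed after any 4 bases by AGGTCA (0.0152%), the E-box CACGTG (7.15%) and TATAAA (13.6%), and none of these is in the 4 windows shown. Apoe, Tmem176a and Cp have further RefSeq starts. TATAAA is in another window of Apoe and of Cp, at chr7:19698572-19698871 and chr3:19956999-19957298. Of the genes searched but not printed, Cst7 had the AP-1 motif in its window, and Fcrls and Wfdc17 had TATAAA. The genes searched, 13 in all and all matched in the table, were picked after their values had been seen. A match describes letters only, and neither a match nor its absence says anything about binding.

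Apoe counts among the chosen cells were very uneven. The library labelled wildtype had 3803 Apoe counts in its 78 cells, with a median of 7 and a highest count of 724. The library labelled knockout had 4060 in 77 cells, with a median of 11 and a highest count of 511. A few cells held much of the transcript in both libraries: the 5 cells with the most Apoe held 63.5% and 46% of it. At the lower edge, 16 and 22 cells had exactly 3 Apoe counts and were inside the rule, and 40 and 73 cells had 2 and were outside it. The chosen cells were deeper in both libraries, with a median of 4809 and 5702 UMIs per cell against 4194 and 4592.5 per Apoe-0 cell, which raises their shares of cells with a UMI where cells were not thinned.

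**Figure D1:**
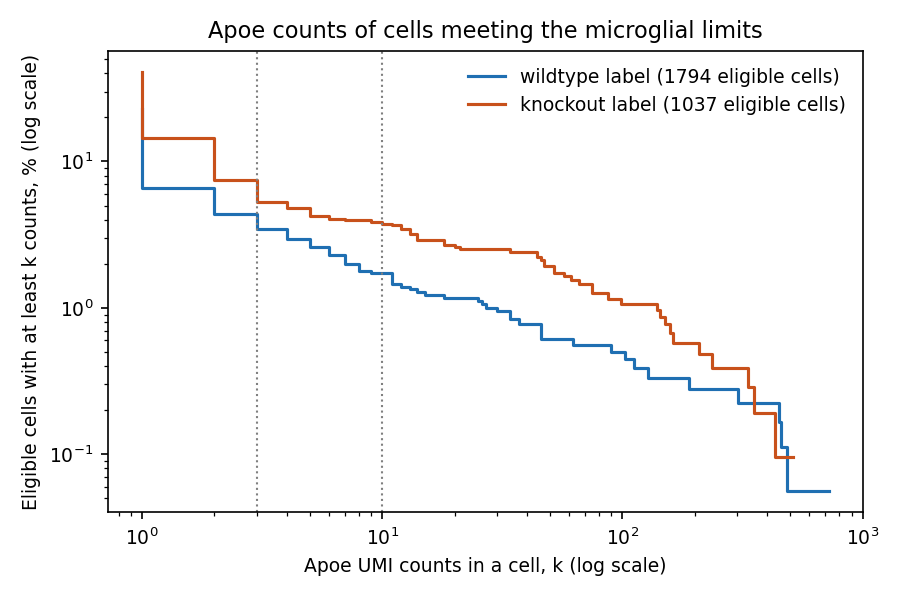
Share of cells (percent, log scale) with at least a given number of Apoe counts (log scale), among microglia that met every limit of the rule other than the Apoe minimum, with 1 line per library. At 3 counts the lines stand at 4.35% (wildtype label) and 7.43% (knockout label), and they run out to 724 and 511 counts.

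Of the microglia that met every limit other than the Apoe minimum (1794 and 1037), 4.35% (3.45% to 5.4%) and 7.43% (5.9% to 9.19%) had at least 3 Apoe counts. The share with at least 10 counts was 1.73% (1.18% to 2.44%) and 3.86% (2.77% to 5.22%), and with at least 50 counts 0.613% (0.306% to 1.09%) and 1.93% (1.18% to 2.96%). At each of these limits the share was higher under the knockout label. After thinning every cell to 2000 UMIs, which left out 94 and 48 shallower cells, 3.41% (2.6% to 4.39%) and 6.57% (5.11% to 8.3%) had at least 2 Apoe counts, in the same order. These shares compare 1 library with another, and the spread between libraries of 1 genotype is not known.

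Low Apoe counts were also seen in cells other than microglia, and whether free RNA or doublets gave them was not tested. Cells with lymphocyte or neutrophil markers and nearly no microglial transcripts, which should lack Apoe, numbered 26 and 23, with medians of 2487.5 and 2433 UMIs; the limit on microglial transcripts was set after values had been seen. Without that limit there were 32 and 38 cells with lymphocyte or neutrophil markers, and their counts of Cx3cr1, Csf1r and C1qa were not bounded. These cells need not all lack Apoe, and what they are was not tested. Of them 3 and 10 had at least 3 Apoe counts (9.38% and 26.3%) and 0 and 6 had at least 10, with highest counts of 3 and 1439. With the limit, 1 (3.85%, 0.0973% to 19.6%) and 3 (13%, 2.78% to 33.6%) had at least 3 Apoe counts, with highest counts of 3 and 4. The shares of microglia with at least 3 counts are therefore not read as above this background, nor is their difference between labels. None of the cells left by the limit had 10 or more. With so few cells this allows a share of up to about 11.5% and 13% (approximate limits, 3 divided by the number of cells). The background share at 10 counts is therefore not known well. Rods, which also should lack Apoe, had a count in 0 of 14 and 0 of 11 cells, but these were shallow, with medians of 1299.5 and 1146 UMIs. The 31 and 40 chosen cells with at least 10 Apoe counts lie above the highest count of the cells left by that limit (3 and 4). Under the knockout label they do not lie above that of the 38 cells without it, which need not all lack Apoe. The 47 and 37 chosen cells with 3 to 9 counts overlap both.

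Several transcripts of Müller glia and of border macrophages were far lower beside Apoe in the chosen cells than in those cells, while others were not. Müller glia (43 and 36 cells) had 342.4 and 271.5 counts of Clu, the secreted chaperone clusterin, per 1000 Apoe counts. The chosen cells had 0 Clu counts beside 3803 and 4060 Apoe counts. Aqp4, the water channel of Müller glia, and Gfap, a glial filament protein, were also at 0 in both. The rule's exclusion of Rlbp1 bears on these genes. The Apoe-0 cells, chosen with the same exclusion, had 3 and 1 Clu counts and 2 and 0 Aqp4 counts. Glul, glutamine synthetase, was present at 418.6 and 506.2 CPM, below the 534.4 and 551.5 CPM of the Apoe-0 cells. Border macrophage-like cells (23 and 14) had 150.4 and 56.2 counts of Cd74, the class II invariant chain, per 1000 Apoe counts, and the chosen cells 9.99 and 5.17. H2-Eb1, a class II chain with 410 and 132 counts in those macrophages, was at 0 in the chosen cells of both libraries, although the rule's exclusion of H2-Aa bears on it. Clec12a, a lectin receptor with 19 and 25 counts in those macrophages, was also at 0. The rule's exclusion of Ms4a7, Mrc1 and Pf4 bears on macrophage genes, and the Apoe-0 cells had 1 and 1 Clec12a counts. F13a1, Lyve1 and Cd163 were at 0 too, but had at most 1 count in the macrophages of the library labelled knockout, so their absence there says nothing. Of the 12 border macrophage markers 6 were at 0 in each library, but not the same 6. Folr2 had 3 counts under the wildtype label (7.22 against 0.975 CPM in the Apoe-0 cells) and 0 under the knockout label. Cbr2 had 0 and 2 counts (4.22 against 0.344 CPM under the knockout label). The list summed to 298.3 and 248.9 CPM against 246.9 and 218.7 CPM in the Apoe-0 cells. Stab1, a scavenger receptor, went the other way, at 11.3 and 9.61 counts per 1000 Apoe counts in the chosen cells against 2.91 and 2.53 in the macrophages, and Ms4a6c had 7.63 and 6.9 against 6.41 and 3.04. Both were also present in the Apoe-0 cells. Stab1 stood at 103.5 and 82.3 CPM in the chosen cells against 77.5 and 71.3 CPM there, and Ms4a6c at 69.8 and 59.1 against 43.5 and 35.1 CPM. Cells of the Spp1 program (26 and 39), with 4638 and 16937 Apoe counts, were not compared in this way. The Müller list summed to 486 and 586.3 CPM against 624.6 and 637.6.

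**Figure D2:**
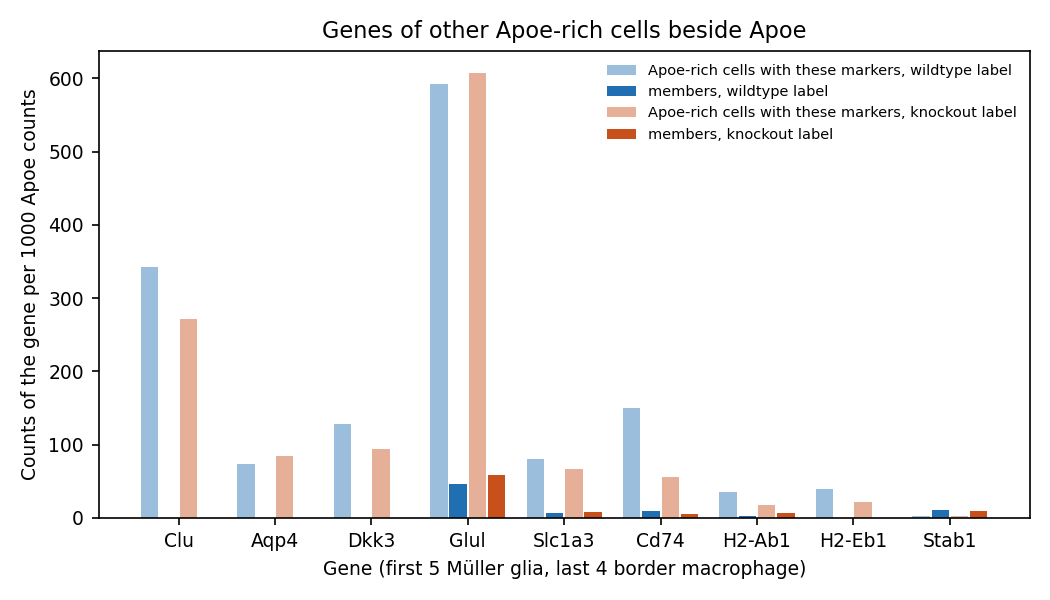
Counts of 9 genes per 1000 Apoe counts of the same cells, as bars for each library: pale bars are Müller glia (first 5 genes) or border macrophage-like cells (last 4), and full bars are the chosen microglia, called members. Clu is at 342.4 and 271.5 in Müller glia and at 0 in the chosen cells, and the rule's exclusion of Rlbp1 bears on that 0.

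Few transcripts differed in both libraries between the Apoe-expressing and the Apoe-0 cells. Of 3685 genes measured, those with 50 CPM or more in the chosen or the Apoe-0 cells of either library, 21 (0.57%) were higher by 1.5-fold or more in both libraries, and 16 (0.434%) were lower by that much in both. Single libraries gave more, 112 (3.04%) and 96 (2.61%) higher, and 147 (3.99%) and 150 (4.07%) lower, so the 21 shared genes are 18.8% and 21.9% of the genes higher in each. Of the 12 higher genes that the ranking named, all but Tmem176a reached 50 CPM in the chosen cells only, as did Axl. For these the CPM minimum favoured a high ratio. Of the 12 lower genes that it named, all but Hspb1, Klk8 and Hist1h1e reached 50 CPM in the Apoe-0 cells only. For those the minimum favoured a low ratio. In 16 of the 21 (0.434% of all measured) and 8 of the 16 (0.217%), both counting intervals lay on the same side of 1. How many genes pass rests on the cells used: with a minimum of 10 Apoe counts 46 genes were higher in both, and without the cell holding most counts of each gene, 7.

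The genes higher in both libraries included ceruloplasmin, a chemokine receptor, an oxidase subunit and the paired Tmem176 genes. Cp, the copper ferroxidase that loads iron for export, stood at 57.7 against 3.25 CPM and at 52.7 against 7.58 CPM, 17.8-fold (9.41 to 33.9) and 6.96-fold (3.77 to 12.9) higher. It was sparse, with 24 and 25 counts in 9 and 13 cells, that is in 11.5% and 16.9% of the chosen cells against 1.08% and 1.63% of the Apoe-0 cells. Thinned to 2000 UMIs the shares were 9.21% and 6.58% against 0.463% and 1.23%. Ccr1, a receptor for chemokines such as Ccl3 and Ccl5, stood at 86.6 against 24.2 CPM and 126.5 against 48.2 CPM, in 17 and 24 cells. Its ratios were 3.58 (2.41 to 5.18) and 2.62 (1.91 to 3.58). Cybb, the membrane subunit of the NADPH oxidase that makes superoxide, stood at 142 against 38.2 CPM and at 48.5 against 22.4 CPM. Its ratios were 3.72 (2.75 to 4.97) and 2.17 (1.28 to 3.53), in 25 and 13 cells. Cyp4f18, a cytochrome P450 that hydroxylates leukotriene B4, had ratios of 5.88 (3.69 to 9.16) and 2.7 (1.37 to 5.09). Wfdc17, a small whey acidic protein-domain protein of macrophages, had 3.56 (2.2 to 5.55) and 2.96 (1.49 to 5.66).

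Tmem176a and Tmem176b, neighbouring membrane proteins of myeloid and dendritic cells, had the highest counts of this group. Tmem176a stood at 695.3 against 282.5 CPM, and at 529.4 against 277.3 CPM, with a UMI in 83.3% and 79.2% of the chosen cells against 55.8% and 56.7%. Its ratios were 2.46 (2.17 to 2.79) and 1.91 (1.65 to 2.2). Thinned to 2000 UMIs per cell, it was seen in 59.2% and 60.5% against 37.3% and 37.5%. Tmem176b had ratios of 1.86 (1.68 to 2.06) and 1.51 (1.35 to 1.69). The genes lie on opposite strands at chr6:48840919-48847071 and chr6:48833818-48841496 of GRCm38 and overlap by 578 bases, and whether the counting used strand is not given in the sources used here, so their counts may not be fully separate.

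Lipid and surface genes were also among the 21. Abcg1, which exports cholesterol to lipoprotein particles, stood at 36.1 against 19 CPM and 52.7 against 17.9 CPM, with ratios of 1.9 (1.03 to 3.26) and 2.94 (1.75 to 4.83). Axl, a receptor tyrosine kinase for the phagocytosis of dead cells, had 2.46 (1.71 to 3.45) and 1.57 (1.06 to 2.28). Fcrls, an Fc receptor-like gene typical of microglia, had 1.51 (1.26 to 1.81) and 2.35 (1.91 to 2.87). The sialyltransferases St8sia4, which makes polysialic acid, and St8sia6 had ratios of 2.73 and 2.45, and of 2.94 and 1.92. Cst7, a cysteine protease inhibitor often listed with disease-associated microglia, had 2.94 (1.89 to 4.44) and 1.94 (0.954 to 3.7), so its interval includes 1 under the knockout label. Cpq, a plasma carboxypeptidase, had 2.27 (1.47 to 3.39) and 1.95 (1.13 to 3.22). Under the knockout label some directions turned with fewer cells: the log2 ratio of Axl was -0.00 and that of Cyp4f18 -0.42 in cells with 3 to 9 Apoe counts, that of Cst7 -0.13 in cells with 3000 to 6000 UMIs, and that of Abcg1 -0.09 without the cells holding any marker of another cell type, which left 28 and 20. That limit also took out most Apoe-0 cells, leaving 535 and 215. A count of such a marker therefore does not by itself name another cell type.

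Il1b, the interleukin 1 beta cytokine, was also higher, at 134.7 against 43 CPM and 80.1 against 34.1 CPM, but rested on single cells. One cell held 33 of its 56 counts under the wildtype label and one 17 of 38 under the knockout label, and those cells had 14603 and 19990 UMIs. Without the cell holding the most Il1b the log2 ratios were 0.41 and 0.44, compared with 1.65 and 1.23 with it. Doublets were not removed, and their part in these cells was not tested.

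**Figure D3:**
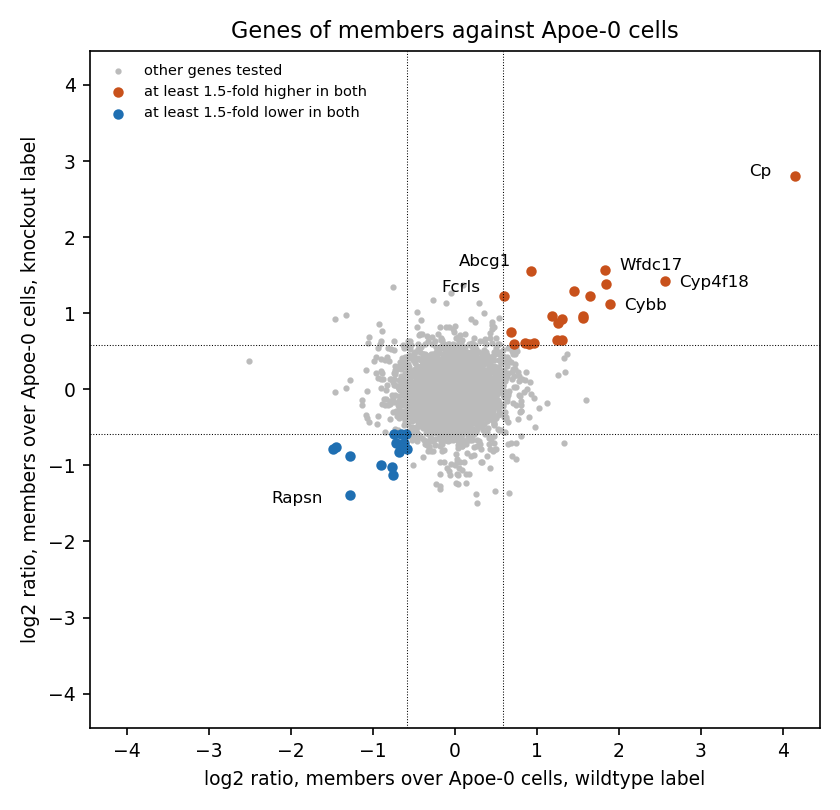
Log2 ratio of CPM, Apoe-expressing over Apoe-0 cells, in the library labelled wildtype (x axis) against the library labelled knockout (y axis), 1 point per gene; Apoe-expressing cells are called members, and colours mark the 21 genes higher and 16 lower in both. Cp stands farthest from 0 among the coloured points, at 4.15 and 2.80.

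Genes lower in both libraries were of several kinds and mostly low in abundance. Klk8, a serine protease, had the most counts among them, at 163.6 against 253.1 CPM and 147.6 against 248.4 CPM, with ratios of 0.646 (0.499 to 0.824) and 0.594 (0.458 to 0.761). Ccl9, a chemokine that binds Ccr1, stood at 26.5 against 74.2 CPM and at 42.2 against 73 CPM, with ratios of 0.357 (0.177 to 0.644) and 0.578 (0.346 to 0.915). Tap1, a transporter that loads peptides for MHC class I, had 0.59 and 0.457. Rapsn, known for clustering acetylcholine receptors, had 0.411 and 0.383, and Nsmce3, a subunit of the SMC5/6 complex, 0.531 and 0.505. Without cells holding a marker of another cell type, Tap1 had a log2 ratio of 0.24 under the knockout label. The others named by the ranking, Zbtb8b, Hspb1, Rexo1, Cacna1s, Eif4ebp1, Pcf11 and Hist1h1e, had ratios from 0.367 to 0.663. The remaining genes higher in both were Ifi207, Ms4a6c, Eid1, Rilpl2, Zfp384 and Ccdc152, and the remaining lower ones Capg, BC035044, Saysd1 and C730034F03Rik.

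Levels across ranges of Apoe counts showed where in the tail these genes stood. Cells with 1 or 2 Apoe counts were close to the Apoe-0 cells in both libraries for Tmem176a, at 322.2 against 282.5 CPM and 258.7 against 277.3 CPM. With 3 to 9 Apoe counts Tmem176a stood at 536.4 and 406.9 CPM, and with at least 10 at 901.8 and 643.4 CPM. Ccr1 had 24 and 32.9 CPM with 1 or 2 Apoe counts, 46.8 and 61.3 CPM with 3 to 9, and 138.3 and 187.3 CPM with at least 10. Cp had 4.93 and 9.01 CPM, then 46.8 and 13.1 CPM, then 71.9 and 89.6 CPM. For these genes the highest level was in the cells with the most Apoe in both libraries. Of the 21 genes, 12 (57.1%) had a higher CPM at 10 or more Apoe counts than at 3 to 9 in both libraries, against 844 of 3685 (22.9%); the 21 were chosen on sums over both ranges, so no test follows.

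Some transcripts were lower where Apoe was highest; Numb and Slc2a5 were picked after their values were seen. Numb, an inhibitor of Notch signalling, stood at 138.3 and 126.2 CPM in cells with at least 10 Apoe counts against 261.2 and 280.7 CPM in Apoe-0 cells. Slc2a5, the fructose transporter of microglia, stood at 105.1 and 134.4 against 200.3 and 262.1 CPM. Tmem119 stood at 935 and 1124 against 1324 and 1425 CPM, and P2ry12, which the rule used, at 1129 and 1279 against 1972 and 1944 CPM. In cells with 3 to 9 Apoe counts Tmem119 was at 1401 and 1264 CPM, close to the Apoe-0 level. Lpl, the lipoprotein lipase, stood at 166 and 93.7 CPM with at least 10 Apoe counts against 41.3 and 42.7 CPM. Abca1, the cholesterol exporter, stood at 60.9 and 154.7 against 54.9 and 51.7 CPM, so it was nearly level under the wildtype label.

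**Figure D4:**
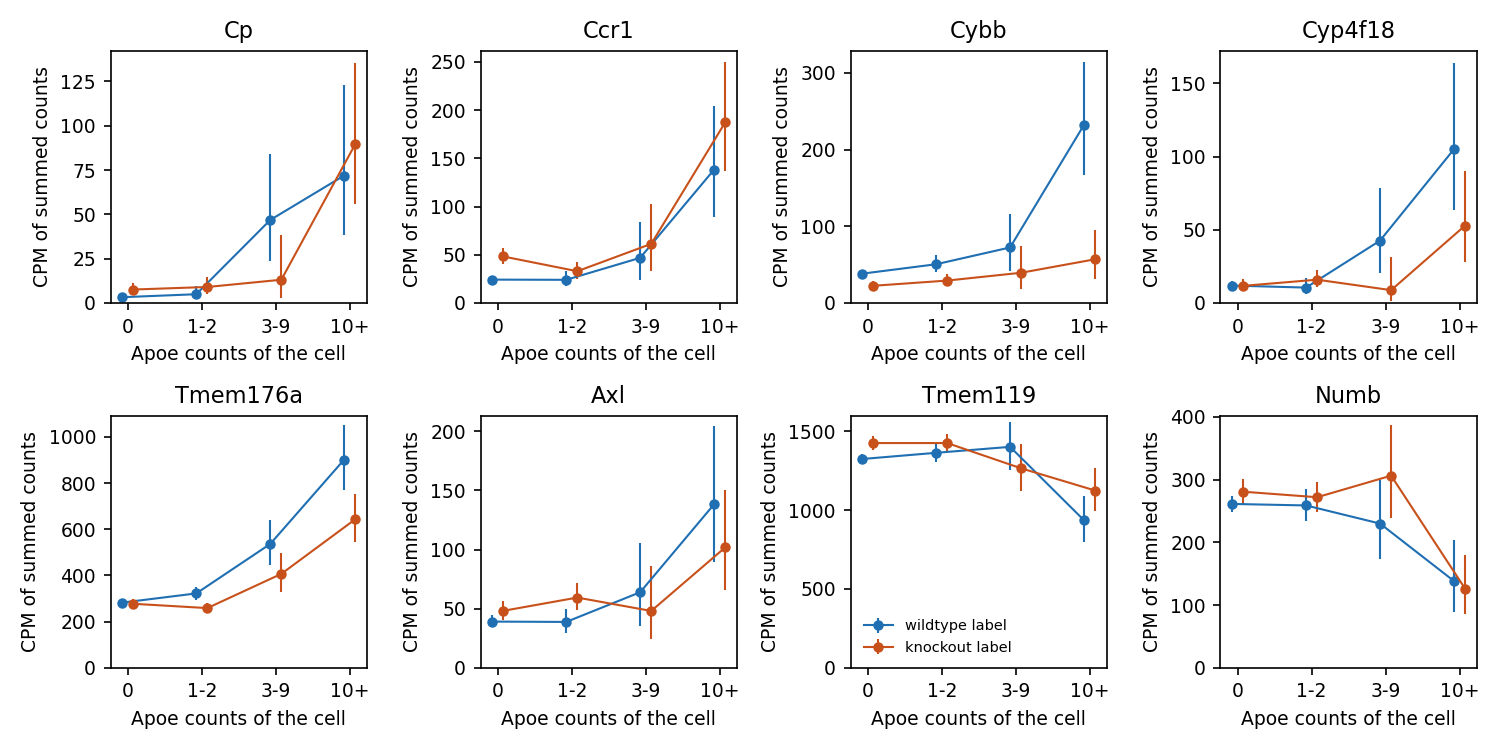
CPM of named genes in microglia grouped by Apoe count (0, 1 to 2, 3 to 9, and 10 or more), 1 line per library, with 95% counting intervals as bars. Tmem176a goes from 282.5 and 277.3 CPM at 0 to 901.8 and 643.4 CPM at 10 or more, and Numb from 261.2 and 280.7 CPM to 138.3 and 126.2 CPM.

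The sparse genes were seen in the same cells more often where Apoe was high. For 9 of them (Cp, Wfdc17, Cyp4f18, Ccr1, St8sia4, Cybb, Cpq, St8sia6 and Abcg1), picked after their values were seen, each cell was thinned to 2000 UMIs and the genes with a count were added up. At least 2 of the 9 were seen in 5.17% (4.03% to 6.51%) and 4.38% (2.85% to 6.4%) of the Apoe-0 cells. With 1 or 2 Apoe counts the share was 5.2% and 6.14%. It was 17.8% (8% to 32.1%) and 18.9% (7.96% to 35.2%) with 3 to 9, and 35.5% (19.2% to 54.6%) and 41% (25.6% to 57.9%) with at least 10. Cells with at least 50 Apoe counts had 63.6% (30.8% to 89.1%) and 50% (27.2% to 72.8%). Because the genes were picked for being higher in the chosen cells, this describes how they fall among the cells and supports no difference.

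Gene lists moved little as a whole. Over all 3685 genes, the median log2 ratio to the Apoe-0 cells was -0.01 and -0.02, with 913 above 1 in both libraries and 1123 below. Of 23 measured genes of the disease-associated microglia list outside the rule, 2 were at least 1.5-fold higher in both (Cst7 and Axl) and none lower; 18 were above 1 in both and 2 below, with medians of 0.12 and 0.10. Trem2, the lipid-sensing receptor of that state, had ratios of 1.1 and 1.07, its adaptor Tyrobp 1.08 and 1.11, and the protease Ctsd 1.16 and 1.16. Cd9, a tetraspanin of the list, was the lowest at 0.88 and 0.803. Lyz2, lysozyme, had 1.66 and 1.26.

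Of 30 homeostatic microglia genes, 21 were below 1 in both libraries and 4 above, with medians of -0.14 and -0.08; only Fcrls was 1.5-fold higher in both, and none was 1.5-fold lower. Cst3, cystatin C and the most abundant of the list, had ratios of 0.901 and 0.924. Of 12 measured lipid genes, 1 was higher in both (Abcg1), 6 were above 1 in both and 2 below, with medians of 0.06 and 0.10. Npc2, which carries cholesterol inside lysosomes, had 1.12 and 0.953, and Npc1, its membrane partner, 0.892 and 0.739. Lpl was 1.5-fold higher in 1 library only, with ratios of 2.51 (1.77 to 3.47) and 1.33 (0.845 to 2.03), and under the knockout label its log2 ratio was -1.29 in cells with 3 to 9 Apoe counts. Abca1 passed that limit in the other, with 1.27 (0.838 to 1.86) and 2 (1.42 to 2.78).

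Among 20 measured chemokine, cytokine and NF-kB genes, Il1b was higher in both, Ccl9 lower in both, and 12 were above 1 in both against 2 below, with medians of 0.21 and 0.25. Of 30 lysosome genes, 1 was higher in both (Axl), with medians of 0.05 and 0.02. Of 16 iron and oxidative stress genes, 1 was higher in both (Cybb), with medians of 0.09 and 0.05. Fth1, the ferritin heavy chain, was nearly level at 1.06 and 1.04. Of 13 glycolysis genes 7 were above 1 in both and none below, with medians of 0.13 and 0.14, and none passed the 1.5-fold limit in both. For 10 MHC class I genes, Tap1 was lower in both, none was above 1 in both and 4 were below, with medians of -0.02 and -0.07. Complement (8 measured), oxidative phosphorylation (34), TGF-beta (10), cell cycle (6), immediate early (23) and interferon genes (18) had no gene past the limit in both libraries. Their medians were 0.09 and -0.07 for complement, 0.05 and 0.12 for oxidative phosphorylation, -0.14 and -0.02 for TGF-beta, -0.22 and -0.00 for the cell cycle, -0.07 and 0.18 for immediate early genes, and 0.11 and -0.20 for interferon genes. For complement, immediate early and interferon genes, the medians of the libraries had opposite signs. Only 2 of 19 cholesterol synthesis genes were measured, Msmo1 at 0.893 and 0.571 and Insig1 at 0.71 and 1.3. Of 14 insulin-like growth factor genes none reached 50 CPM: Igf1r had 8 and 6 counts in the chosen cells and Igf1 none.

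Apoc1, the neighbour of Apoe in the genome and another lipid-particle protein, differed in where it was seen. It had 3 counts in 2 of the chosen cells under the wildtype label, at the floor of 3 counts, and 43 counts in 8 cells under the knockout label. Those 8 cells all had at least 10 Apoe counts, and 2 of them held 30 of the 43. Under the knockout label the Apoe-0 cells had 3 Apoc1 counts among 612 cells, so the ratio was 87.8 with a counting interval of 28.1 to 442.2.

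Between the labels, the Apoe-expressing cells were compared gene by gene on few cells. Of 3543 genes measured, the ratio of knockout over wildtype label was 1.5 or more for 240 (6.77%) and as far below 1 for 321 (9.06%). Counting intervals lay on that side for 111 (3.13%) and 154 (4.35%). In the Apoe-0 cells, with many more counts behind each gene, 14 (0.422%) and 24 (0.724%) of 3315 passed the same limit. The ratios below have wide intervals. All 24 genes that the ranking named reached 50 CPM in 1 library only, so that the minimum itself favoured a large ratio, and the Apoe-0 ratio is given beside them as a value and not as a contrast.

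Genes with higher ratios under the knockout label included transcriptional regulators. Hes1, a target of Notch signalling, stood at 19.2 CPM (8 counts in 6 cells) and 78 CPM (37 counts in 13 cells), a ratio of 4.05 (1.86 to 10.1), against 0.821 in the Apoe-0 cells. Prdm1, the repressor Blimp-1, stood at 12 and 50.6 CPM, a ratio of 4.21 (1.57 to 14.1), against 0.797 in the Apoe-0 cells. Ube4a, a ubiquitin ligase, had 3.51 (1.58 to 8.81) and Man2a2, a Golgi mannosidase, 3.4 (1.53 to 8.55), each in 8 and 21 cells. Apoc1 had 12.6 (4.02 to 63.3), on 3 and 43 counts. The others named by the ranking, Rnf122, Cisd1, Mib1, Vps72, Dynll2, Rassf5 and Slamf6, had ratios from 2.63 to 3.07.

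Genes with lower ratios included interferon-induced and inflammatory ones. Isg15, a ubiquitin-like modifier, had 132.3 CPM and then 35.9 CPM, with a ratio of 0.271 (0.147 to 0.474), against 0.918 in the Apoe-0 cells. Of its 55 counts under the wildtype label 19 were in 1 cell, which was also the cell with the most Apoe, and without the cell holding the most Isg15 the log2 ratio was -1.47 compared with -1.88. In the 28 and 20 cells without a count of any marker of another cell type it was 0.92, so the direction of Isg15 changed with the cells used. That limit took out most Apoe-0 cells too, and what the cells left out are was not tested. Ifitm2, which restricts virus entry, stood at 93.8 and 35.9 CPM, a ratio of 0.382 (0.203 to 0.691), against 1.28 in the Apoe-0 cells. Ccl5, a chemokine of T cells and activated microglia, stood at 142 and 12.7 CPM, a ratio of 0.0891 (0.0314 to 0.206). One cell held 31 of its 59 counts under the wildtype label, with 9912 UMIs and all 18 T and NK cell marker counts of the group, and the ratio in the Apoe-0 cells was 0.318. With cells down to 1 P2ry12 count added, the log2 ratio of Ccl5 was 0.33. Cybb stood at 142 and 48.5 CPM, a ratio of 0.342 (0.201 to 0.562), against 0.587 in the Apoe-0 cells, so it was lower under the knockout label in both kinds of cell. Rrad, a small GTPase, had 0.18, and Dusp2, a phosphatase that acts on MAP kinases, 0.245. Ifi207, lower here, had a log2 ratio of 1.77 in the 28 and 20 cells without another marker. Lsm5, Ctdspl2, Ifi207, Dynlt3, Myo1e and Fgfr1op had ratios from 0.325 to 0.39.

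**Figure D5:**
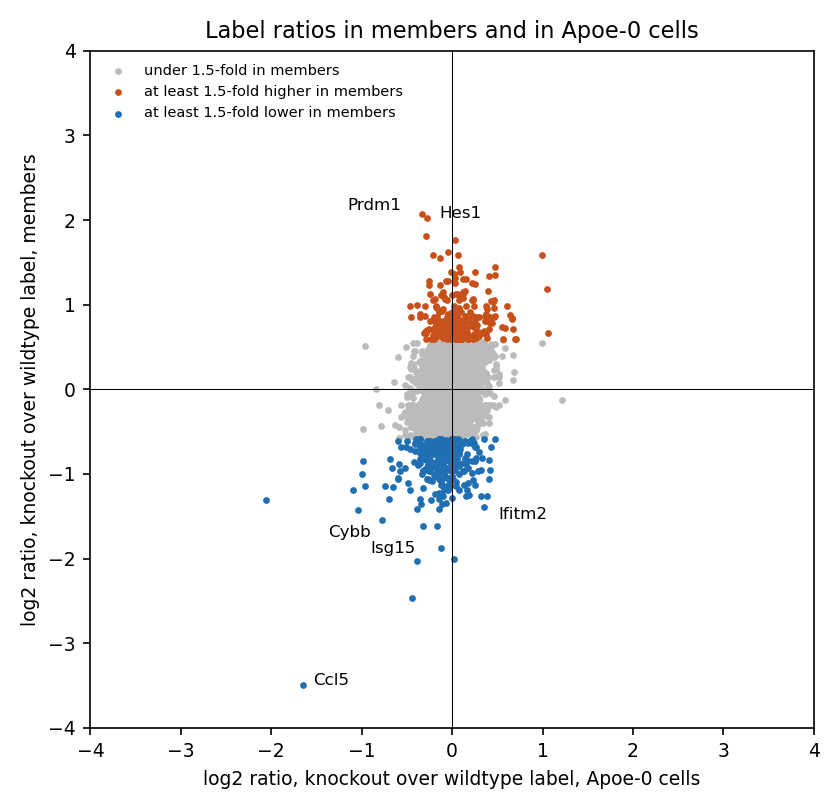
Log2 ratio, library labelled knockout over library labelled wildtype, in the Apoe-0 cells (x axis) and in the Apoe-expressing cells, called members (y axis), 1 point per gene. Isg15 stands at -0.12 and -1.88, and Hes1 at -0.28 and 2.02.

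Whether the label difference itself was unlike in Apoe-expressing and Apoe-0 cells was described by a ratio of the 2 ratios, in 5142 genes with enough counts. It was at least 1.5-fold larger with its counting interval on that side for 104 genes (2.02%) and smaller for 114 (2.22%). It was 0.295 (0.168 to 0.517) for Isg15 and 0.299 (0.162 to 0.553) for Ifitm2. Ifitm3, on 183 and 145 counts, stood at 440.3 and 305.8 CPM in the Apoe-expressing cells and 269.3 and 345.9 CPM in the Apoe-0 cells, with a value of 0.541 (0.429 to 0.682). Of the 183 counts 34 were in 1 cell, and the gene was seen in 30 cells under the wildtype label and 47 under the knockout label, opposite to the order of the CPM. The Apoe-expressing cells were deeper under the knockout label, with a median of 5702 against 4809 UMIs, which raises such numbers of cells. Jun, an immediate early transcription factor, stood at 3036 and 4136 CPM against 4216 and 3366 CPM, so the order of the labels was opposite in the 2 kinds of cell, with a value of 1.71 (1.58 to 1.84). One cell held 190 of the 1961 Jun counts under the knockout label, and the log2 label ratio of the Apoe-expressing cells, 0.45, was -0.09 in the 28 and 20 cells without another marker, where the order was no longer opposite. Jun is among the genes that tissue dissociation induces, and the part of dissociation was not tested. Fcrls had 1.55 (1.19 to 2.03), since it was lower under the knockout label in the Apoe-0 cells (213.1 and 121.3 CPM) and nearly level in the Apoe-expressing ones (322.4 and 284.7 CPM). The log2 label ratio of Fcrls in the Apoe-expressing cells, -0.18, was 0.81 in those with at least 10 Apoe counts. Cp had 0.391 (0.172 to 0.893), and Cxcl10, an interferon-induced chemokine, 1.67 (1.04 to 2.68). Of the 18 measured interferon genes, 3 had ratios of 1.5 or more and 9 were as far below 1 in the Apoe-expressing cells of the library labelled knockout, beside 6.77% and 9.06% of all genes, with a median log2 ratio of -0.59 against 0.14 in the Apoe-0 cells and -0.02 over all genes. Several of the 9 rested on 1 cell under the wildtype label: 20 of 32 Ifit2 counts, 18 of 53 Ifit3 counts, 25 of 61 Cxcl10 counts and 31 of 59 Ccl5 counts. Ifit2 was seen in 7 and 9 cells, Ifit3 in 11 and 18, Isg15 in 11 and 14, Irf7 in 11 and 12 and Ifi204 in 19 and 22, so the number of cells with these genes was not lower under the knockout label. The 12 measured lipid genes had a median of 0.41 against 0.05 in the Apoe-0 cells, with 1 higher and 1 lower. Ifi27l2a, an interferon-induced gene among the 3 higher ones, was higher in both kinds of cell, with ratios of 1.78 and 1.58.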

How the data were processed

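Per the labels' protocols, retinal cells were sorted on CD45 and made into 10x 3′ libraries. Cell Ranger 3.1 and mm10 were used per the submitters' processing notes. The authors deposited 1 table of raw UMI counts per library, 31053 genes by barcodes, with no normalization, and no per-sample column was left unused (0). The library labelled wildtype held 11020717 UMIs in 2735 barcodes and the library labelled knockout 7945713 in 1785. After the cell filter 2695 and 1761 barcodes were kept, with medians of 3910 and 4286 UMIs. The tables share 1 barcode, which is not among the chosen cells. Doublets were not removed and no caller was run.

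Counts were summed per library over the chosen and the Apoe-0 cells and given as CPM. The interval of a ratio came from an exact binomial interval on how its counts divide, and genes were measured at 50 CPM or more in either group of either library (in either library, for labels). A ratio against 3 counts or fewer in both groups was not given. No model, test or p-value was used. Genes named were the 12 highest and 12 lowest of those 1.5-fold higher or lower in both libraries by the ratio nearer 1, the 12 highest and 12 lowest label ratios, and the most abundant, highest and lowest gene of 16 lists. Ribosomal, mitochondrial, predicted and sex-linked genes (Xist, Tsix and Y-linked ones, so that Cybb on the X chromosome was kept) and markers of other cells (13 lists) were left out of the rankings. Other genes were picked after their values were seen, and 1 gene is not reported here. A ratio of label ratios used genes with at least 10 counts in each group, and its interval was a normal approximation on the log scale.

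Cells were thinned to 2000 or 1000 UMIs by drawing without replacement. The rule, the lists and the comparisons were chosen with earlier results of these data known. Müller glia, macrophage-like and other cells used for comparison had at least 3 counts of their markers. Gene positions were taken from the GENCODE M21 annotation of GRCm38. The steps were checked on simulated counts. Alternatives varied the Apoe and P2ry12 minimum, the cell filter, depth, scaling, CPM minimum and fold, and left out cells with a count of any T and NK cell, B cell, neutrophil, rod or endothelial marker. Those with 10 or more Apoe counts, with 3 to 9, and without the cell holding most counts of a gene were added after the data were seen. Python 3.11.15, numpy 2.4.6, scipy 1.17.1, scikit-learn 1.9.0 and matplotlib 3.10.9 were used.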

Additional observations from a re-analysis of the deposited data

How the results depend on the processing

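No paired analysis was possible because each label has 1 library, so no replicate was left out either. The number of genes higher in both libraries (21) was 46, 36 and 7 with Apoe minimums of 10, 5 and 2, 57 with 3000 to 6000 UMIs, 85 thinned to 2000 UMIs, 181 without cells holding another marker, 67 and 6 at 20 and 100 CPM, 7 at a fold of 2 and 7 without the cell holding most counts of a gene. The number lower in both (16) was, in that order, 75, 43, 4, 63, 75, 113, 105, 4, 1 and 51, and 10 with a P2ry12 minimum of 1. Genes higher under the knockout label (240) numbered 544, 399 and 138 with Apoe minimums of 10, 5 and 2, 592 with 3000 to 6000 UMIs, 660 thinned, 958 without other markers, 872 and 58 at 20 and 100 CPM, 54 at a fold of 2 and 483 in cells with 3 to 9 Apoe counts. Those lower (321) numbered 540 and 172 with Apoe minimums of 10 and 2, then 754, 795, 1068, 879, 78, 70 and 597. Larger ratios of ratios (104) numbered 54 with 10 or more Apoe counts, 59 with 3000 to 6000 UMIs and 40 without other markers, and smaller ones (114) 74, 66 and 30. Most of these alternatives used fewer cells or counts; the cause of the other moves was not tested.

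The share under the wildtype label (4.35%) was 1.73%, 2.95% and 6.58% with Apoe minimums of 10, 5 and 2, 3.41% with 3000 to 6000 UMIs, and 3.41% and 7.66% thinned to 2000 and 1000 UMIs. Under the knockout label (7.43%) it was 3.86%, 4.82%, 14.5% and 5.69% for the first 4, 13.2% thinned to 1000 UMIs and 5.88% without other markers. It was higher under the knockout label in each of the settings for which both are given here. The share of neighbours that were Apoe-expressing cells was, for such cells under the wildtype label (7.01%), 5.04% with 10 components and 5% thinned; for Apoe-0 cells it was 3.47% and 3.37% under the wildtype label (2.97%) and 6.07% with 10 components under the knockout label (5.42%).

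Of the values for single genes, 1010 stayed within the counting interval of the reported value, 122 moved outside it and 19 of genes past 1.5-fold changed sign. Genes under 1.5-fold also changed sign: Fcrls between labels reached 0.81, Vcam1 0.46, Jun -0.09 and Lpl under the knockout label -1.29. The log2 ratios of genes past 1.5-fold that changed sign without cells holding another marker were, under the knockout label, -0.09 for Abcg1, -1.97 for Ms4a6c and 0.24 for Tap1, under the wildtype label -1.83 for Il1b, -0.03 for Ms4a6c and 0.48 for Zbtb8b, and between labels 1.77 for Ifi207 and 0.92 for Isg15. In cells with 3 to 9 Apoe counts they were -0.00 for Axl and -0.42 for Cyp4f18 under the knockout label, -0.15 for Cxcl13 and -0.75 for Il1b under the wildtype label, and 0.20 for Ccl12 between labels. With 3000 to 6000 UMIs they were -0.13 for Cst7 and -0.05 for Il1b under the knockout label and 0.02 for Dynlt3 between labels. The remaining ones were -1.07 for Il1b under the knockout label without cells above 3 times the median UMI count, 0.07 for Rexo1 thinned to 2000 UMIs under that label, and 0.33 for Ccl5 between labels with a P2ry12 minimum of 1. Depth limits sparse genes: Prdm1 between labels rests on 5 and 24 counts.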

Other observations

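Neighbours were sought only among microglia that met every limit other than the Apoe minimum, so no other cell type could be a neighbour. Most neighbours of the Apoe-expressing cells were not themselves Apoe-expressing. Apoe-expressing cells were near each other more often than Apoe-0 cells were near them. Among the 15 nearest neighbours of each such cell, in 20 principal components computed without the genes of the rule, 7.01% and 7.97% were also Apoe-expressing, where their share of all eligible cells was 4.35% and 7.43%. For Apoe-0 cells the share of such neighbours was 2.97% and 5.42%. Among cells with at least 10 Apoe counts, 2.37% and 6.5% of neighbours had as many, where their share of all was 1.73% and 3.86%, and for Apoe-0 cells 0.968% and 2.27% of neighbours were such cells.

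Single cells carried some of the most uneven transcripts. Cxcl13, a chemokine that attracts B cells, had 19 counts in 2 cells under the wildtype label and 19 counts in 1 cell under the knockout label, and all 3 cells had at least 10 Apoe counts. Ccl12, a monocyte-attracting chemokine, was spread more widely, with 562 counts in 48 cells and 355 in 51, at 1.26 and 1.37 times the Apoe-0 level. Stmn1, a tubulin-binding protein of dividing cells, had 7 counts under the wildtype label, at 16.8 against 96.2 CPM in Apoe-0 cells, and 20 under the knockout label, at 42.2 against 32.7 CPM.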
